A study of Mus musculus with 24 samples.

Results

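The genes described here are the translation initiation and elongation factors of mouse cortical neuron cultures exposed to a proteasome inhibitor. They were chosen by name and signal alone: a gene symbol in the non-normalized signal table that starts with Eif and a digit from 1 to 6, or with Eef and 1 or 2, and a signal of 80 intensity units or more on at least 3 of the 24 arrays. Such symbols were carried by 87 probes of 54 genes, and 73 probes of 48 genes met the signal limit, among 24613 probes with values and 10885 genes tested. Of the 48 genes, 45 were detected on all 24 arrays, and the other three (Eif4ebp3, Ago3 and Eef2k) on 23, 17 and 13. Just inside the limit lay Eef2k, with signals of 54 to 93.9 and 3 arrays at 80 or more. Just outside lay 2 dim probes of Ago3 with highest signals of 78.7 and 78.4. No probe of Ago1, Eif2ak4, Eif2s1, Eif2s3y, Eif5a2 or Eif5b met the limit, and these 6 genes were not tested. Ago2, Ago3 and Ago4 matched only because the array design lists them under their older symbols Eif2c2, Eif2c3 and Eif2c4. They encode Argonaute proteins of small RNA silencing, so 45 of the 48 are genes of the translation machinery and its regulators.

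Protein synthesis starts when eIF2, carrying the initiator tRNA, and the large eIF3 complex load a small ribosomal subunit onto an mRNA whose cap is held by eIF4E, the scaffold eIF4G and the helicase eIF4A. eIF1 and eIF1A guide the search for the start codon, eIF5 triggers the hydrolysis of GTP on eIF2, and eIF2B reloads eIF2 with GTP. Initiation is controlled mainly in a pair of ways: stress-activated kinases phosphorylate the alpha subunit of eIF2, which blocks eIF2B, and 4E-binding proteins keep eIF4E away from eIF4G until the kinase mTORC1 phosphorylates them. Elongation is carried out by eEF1A, which delivers aminoacyl-tRNA, its exchange factor eEF1B, and eEF2, which moves the ribosome along and is inhibited by eEF2 kinase.

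RNA came from primary cortical neurons of Swiss albino mouse fetuses (gestational day 15 or 16), treated on day 5 in culture with lactacystin, a bacterial product that blocks the proteasome. Lactacystin was dissolved in dimethyl sulfoxide and diluted in culture medium to 1 µM, for 5, 8, 15 or 24 h, or to 0.1 µM, for 15 or 24 h. Each of these 6 groups has 3 arrays, and 6 arrays came from untreated cultures for which the labels give neither a vehicle nor a collection time. Solvent and time in culture are therefore part of every comparison with the controls. Whether the 3 arrays of a group stand for separately grown cultures is not stated in the labels, and p-values here measure the spread between arrays, which may be technical. The comparisons ask how gene expression changes with the dose of the inhibitor and with time.

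Biotin-labelled cRNA was hybridized to Illumina mouse bead arrays on 3 slides of 8 arrays, with 2 controls and 1 array of each treated group on every slide and each treated group always in the same position. Position and group cannot be told apart. The values of every treated array matched, to rounding, a scanner column on another slide than its replicate number points to (99.924% of 14487 genes equal), while the controls matched their own. The groups are unaffected, and slides below are those of the matching scanner columns. Median signal per array was 52.2 to 81 intensity units, and 11275 to 12391 probes were detected per array. Detection of a probe was inferred from its signal, as described with the processing below. Control arrays differed from each other more (root mean square difference 0.289 to 0.546 log2 units over 15 pairs) than arrays within the treated groups (0.21 to 0.311). Levels below are log2 normalised intensities, changes are log2 differences ± SE from limma, and a gene is called higher or lower at a Benjamini-Hochberg adjusted p under 0.05 over all 10885 genes. The SE uses 1 variance per gene, estimated over the 24 arrays. All comparisons with untreated cultures share the same 6 controls.

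The cultures held more than neurons, and their markers moved. Of 9 tested neuron markers, 7 were lower and 1 (Map2) higher at 24 h of 1 µM, and their summed linear intensity was 13753 to 14105 against 22612 to 26720 in the controls. It was 25538 to 27820 at 24 h of 0.1 µM. Of 5 tested astrocyte markers all were lower at 24 h of 1 µM (sum 4180 to 4516 against 8469 to 12596), as were 5 of 7 oligodendrocyte lineage markers (sum 4643 to 5093 against 10992 to 13523). Of 3 tested microglia markers 2 were higher and 1 lower (sum 451 to 571 against 107 to 162), while the microglial markers Csf1r and Itgam were detected on no array. The neuron markers Nefl and Gad2 and the astrocyte markers S100b and Slc1a2 were also detected on no array. Of the 2 tested endothelial and meningeal markers 1 was lower (sum 242 to 256 against 235 to 768). At 5 h of 1 µM the neuron sum (23167 to 24060) lay within the control range with 0 of 9 markers called, at 8 h 4 were lower, and at 15 h 6. The microglia sum was not above the controls at 5 or 8 h (105 to 156 and 106 to 121). The part of these shifts in the changes of the translation genes was not tested. In such bulk samples fewer cells of a type and less RNA per cell cannot be told apart.

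At 1 µM the translation genes moved mainly upward from 8 h on. After 5 h 3 of the 48 were higher and 0 lower, where 6.2% of all tested genes were higher and 4.08% lower. That count was 6 without control 5 or control 6, 7 without both, and 0 when only the controls and the 5 h arrays were fitted (adjusted p = 0.0838 for Eif4ebp1, 0.0872 for Eif2b4 and 0.139 for Eif3d). After 8 h 16 were higher and 3 lower (all genes 20.1% and 19.8%), after 15 h 24 and 3 (27.2% and 27.7%), and after 24 h 21 and 5 (26.7% and 30.7%). In either direction the share of members called, 39.6%, 56.2% and 54.2% at 8, 15 and 24 h, lay near that of all genes (39.9%, 54.9% and 57.4%). What differed was the split: at 15 h 50% of members were higher against 27.2% of all genes, and 6.25% lower against 27.7%. The median change of the members was 0.08, 0.24 and 0.22 at 8, 15 and 24 h, against -0.01, -0.00 and -0.05 over all tested genes. No test of the list as a whole was run. Every member called at 5, 8 or 15 h had the same direction on all 3 slides, and at 24 h 24 of 26 did, the exceptions being Eif4e and Eif4g1. The slides hold the same arrays that gave the calls, so this agreement is no separate check. With each array centred on its median in place of quantile normalization, which moves the median of all genes at 24 h to -0.15, the split at 24 h was 13 higher and 10 lower, and 14 higher and 9 lower by the authors' deposited ratios. The split of all genes under these scalings is not given here, so how far the members differ from it is not shown.

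**Figure D1:**
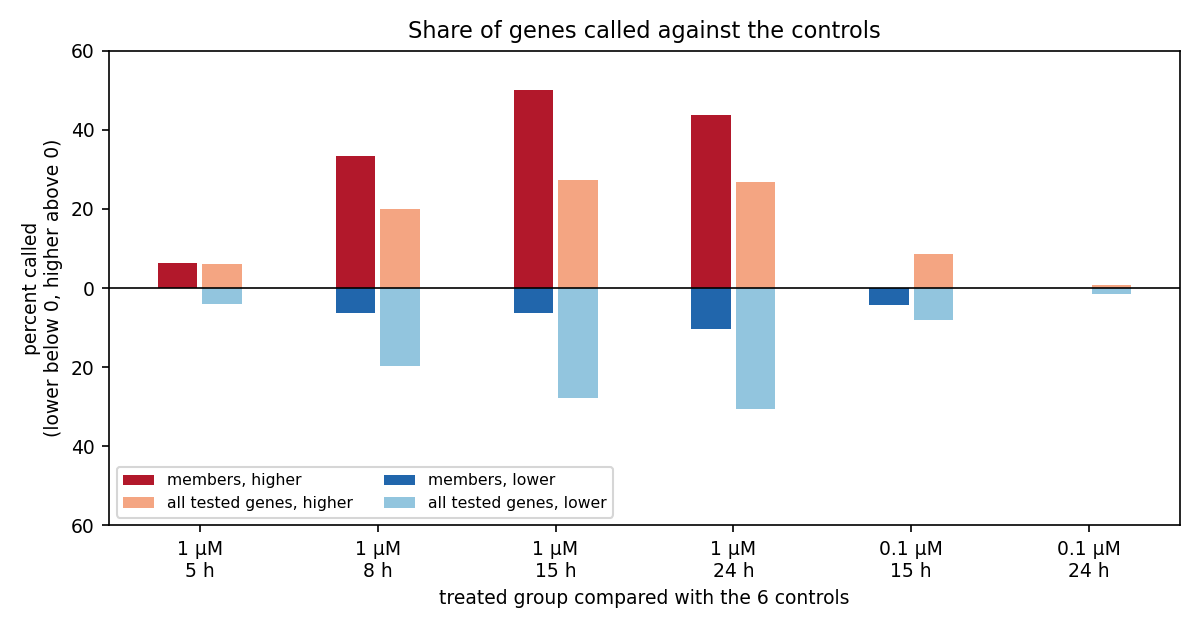
Percent of the 48 members (dark bars) and of all 10885 tested genes (light bars) called higher (upward, red) or lower (downward, blue) in each treated group against the 6 controls. At 15 h of 1 µM 50% of members were higher and 6.25% lower, against 27.2% and 27.7% of all genes.

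Counts differed between the roles, and that difference was not tested. At 15 h of 1 µM 27.2% of all tested genes were higher and 27.7% lower. At that time 9 of 12 eIF3 entries, 5 of 7 eIF2 and eIF2B subunits, both eIF2 alpha kinases among the 48 and 3 of 4 eIF4E-binding proteins were higher. None of these groups had a lower member, while of 8 elongation genes 0 were higher and 1 lower. In all, 14 members were higher at 8, 15 and 24 h alike, 3 (Eif4ebp1, Eif3d and Eif2b4) at all 4 times, and 3 (Eif1ax, Eif4a2 and Eef1a2) were lower at both 15 and 24 h. A further 16 members were called in none of the 6 comparisons with the controls. The shares of all tested genes with these patterns were not computed, so the pattern counts are not shown to be particular to the members. Where a called member had other probes, these gave the same sign in 6 of 6 cases at 8 h, 11 of 12 at 15 h and 11 of 11 at 24 h, and were themselves called in 3, 7 and 6. The case of opposite sign at 15 h was Eif4e. No called change of a named gene reversed its sign under any alternative processing tried, a check that did not follow the signs of a gene's other probes.

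**Figure D2:**
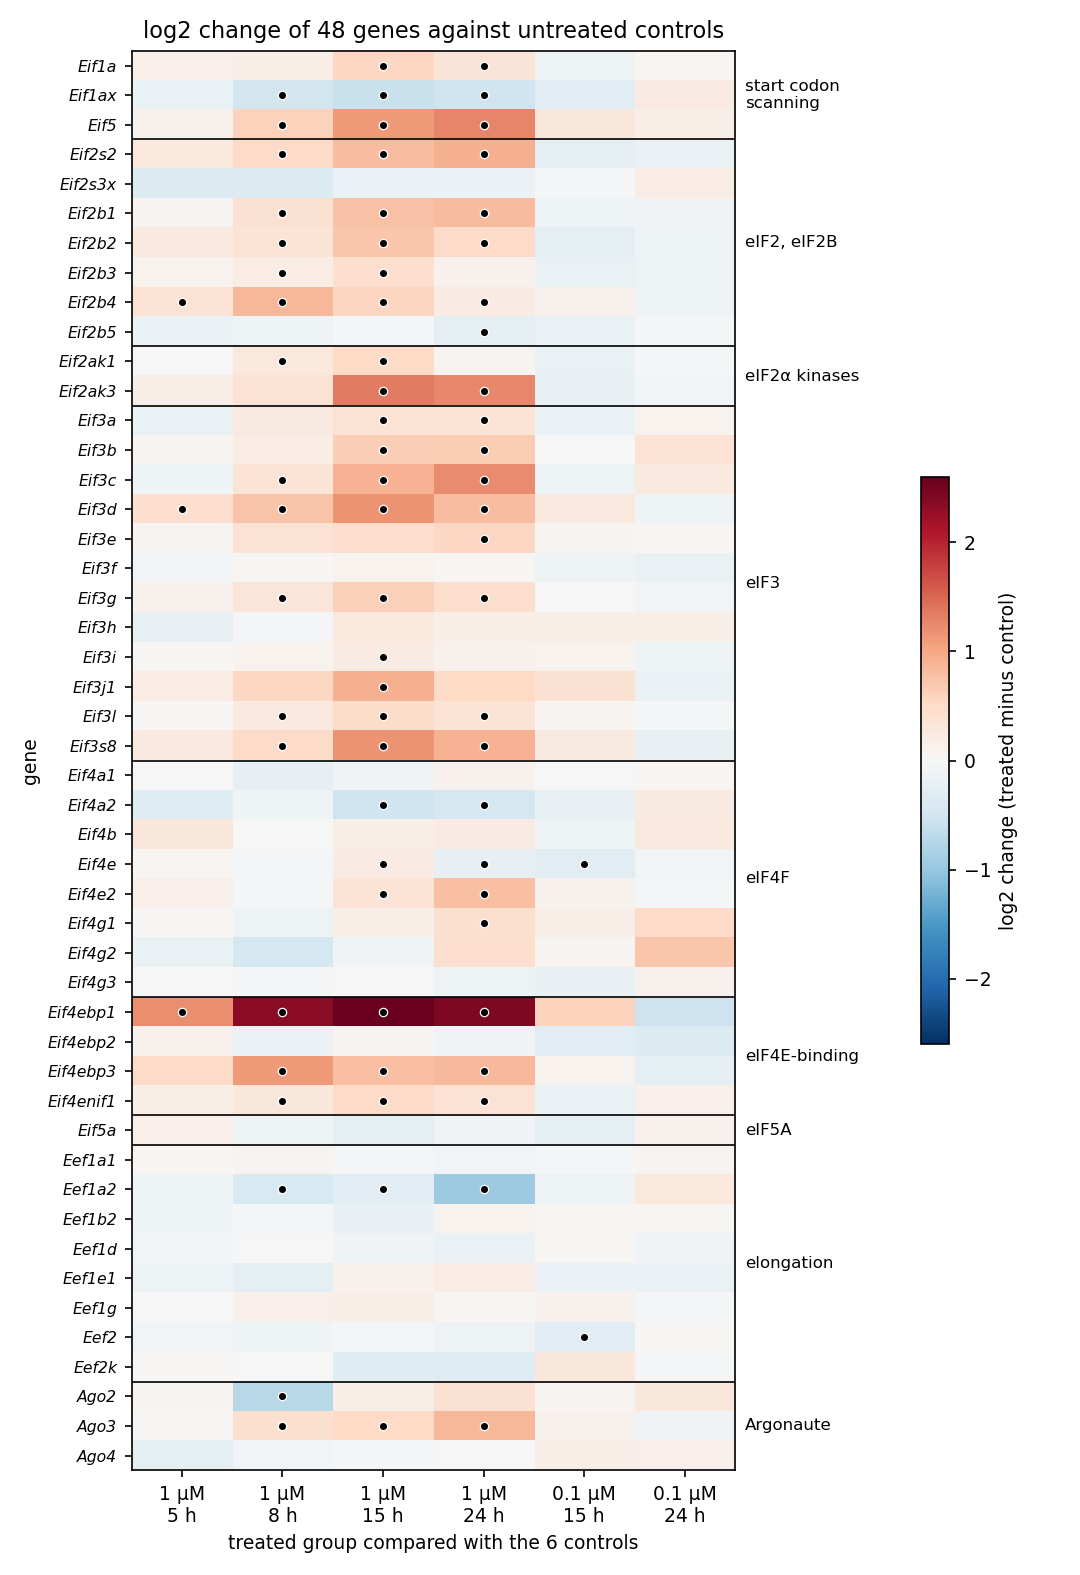
Log2 change of the 48 members (rows, grouped by role) in each treated group against the 6 controls (columns); red is higher, blue is lower, and a dot marks a call at adjusted p under 0.05. The dots cluster in the eIF2, eIF3 and eIF4E-binding rows at 8 to 24 h of 1 µM, the elongation rows hold few, and the columns of 0.1 µM hold 2 dots at 15 h and none at 24 h.

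eIF2 and its control. The kinase Eif2ak3 (PERK), which phosphorylates eIF2 when unfolded proteins collect in the endoplasmic reticulum, was expressed at a low level in the controls (lowest 5.42, median 5.80, highest 6.40). It read 7.58, 7.02 and 7.07 at 15 h and 7.45, 6.85 and 7.06 at 24 h of 1 µM. These 6 arrays all lay above the highest control, whereas the arrays at 5 h (6.27, 5.81 and 6.00), at 8 h (6.39, 6.34 and 6.01) and at 0.1 µM (5.26 to 6.22) lay within the control range or below it. The rise was 1.35 ± 0.21 at 15 h (2.55-fold, adjusted p = 1.48e-05) and 1.24 ± 0.21 at 24 h (2.37-fold, adjusted p = 3.82e-05). Within the 3 slides it was 1.22, 1.57 and 1.25 at 15 h.

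A second kinase, Eif2ak1 (HRI, known for sensing haem shortage in red cell precursors), had a smaller and passing rise. Controls read 8.27 to 8.44 with a median of 8.38, and the arrays at 8 h (8.63, 8.75 and 8.59) and 15 h (8.83, 8.94 and 8.93) all lay higher. At 24 h it was back near the controls (8.38, 8.45 and 8.54). The changes were 0.28 ± 0.07 (adjusted p = 0.00253), 0.53 ± 0.07 (adjusted p = 1.24e-06) and 0.08 ± 0.07 (adjusted p = 0.337). The double-stranded RNA kinase Eif2ak2 (PKR), listed in the table under the older symbol Prkr and so outside the name rule, was not called at 1 µM. It was higher at 15 h of 0.1 µM (0.80 ± 0.16, adjusted p = 0.00126), and lower at 1 µM than at 0.1 µM at that time (-1.11 ± 0.18, adjusted p = 2.35e-05). Unlike the kinases above it was also lower at 15 h than at 8 h of 1 µM (-0.60). The amino acid sensor Eif2ak4 was below the signal limit on all arrays.

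Of eIF2 itself, the beta subunit Eif2s2 was higher from 8 h on. Its control levels ran from 10.16 to 10.67 with a median of 10.41. The 3 arrays read 10.88, 10.99 and 10.84 at 8 h, 11.24, 11.16 and 11.20 at 15 h, and 11.38, 11.26 and 11.36 at 24 h, all above the highest control. The rise reached 0.93 ± 0.09 at 24 h (1.9-fold, adjusted p = 2.07e-08), and the second probe of the gene gave 1.17 ± 0.09. At 0.1 µM the arrays read 10.14 to 10.33, within or just below the control range. The gamma subunit Eif2s3x was not called in any comparison with the controls (-0.35 to 0.19), and the phosphorylated alpha subunit itself, Eif2s1, gave no usable signal.

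eIF2B, the exchange factor that the phosphorylated eIF2 blocks, is built of subunits encoded by Eif2b1 to Eif2b5, and all of them were measured. Eif2b4 (delta) peaked early. Controls lay between 10.13 and 10.37 with a median of 10.24. The arrays read 10.55, 10.64 and 10.65 at 5 h, 11.06, 11.12 and 11.11 at 8 h, 10.80, 10.71 and 10.85 at 15 h, and 10.35, 10.55 and 10.48 at 24 h. All arrays up to 15 h lay above the controls, and at 24 h 1 of 3 fell among them. The changes were 0.38 ± 0.07, 0.86 ± 0.07, 0.55 ± 0.07 and 0.22 ± 0.07 (adjusted p = 0.00187, 8.32e-09, 1.06e-06 and 0.0113). Between 8 and 15 h it fell by 0.31 (adjusted p = 0.00642), and between 15 and 24 h by 0.33 (adjusted p = 0.012). The call at 24 h was lost without replicate 2 of that group (0.18) and with arrays centred on their medians (0.01, adjusted p = 0.96).

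The other subunits peaked later or not at all (values of Eif2b1, Eif2b2 and Eif2b3 were picked for printing after they were seen). Eif2b1 (alpha) rose by 0.40, 0.77 and 0.82 at 8, 15 and 24 h, Eif2b2 (beta) by 0.36, 0.73 and 0.50, and Eif2b3 (gamma) by 0.20, 0.43 and, without a call, 0.12. The SE was 0.07 to 0.10. Eif2b5 (epsilon), the catalytic subunit, went the other way: controls read 10.68 to 10.92 with a median of 10.79, the arrays at 24 h 10.42, 10.61 and 10.6. All 3 lay below every control, a fall of 0.25 ± 0.07 (log2 change -0.25, adjusted p = 0.00289). The second probe gave -0.17 and was not called (adjusted p = 0.239). At 5, 8 and 15 h it was not called (-0.18, -0.13 and -0.06).

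**Figure D3:**
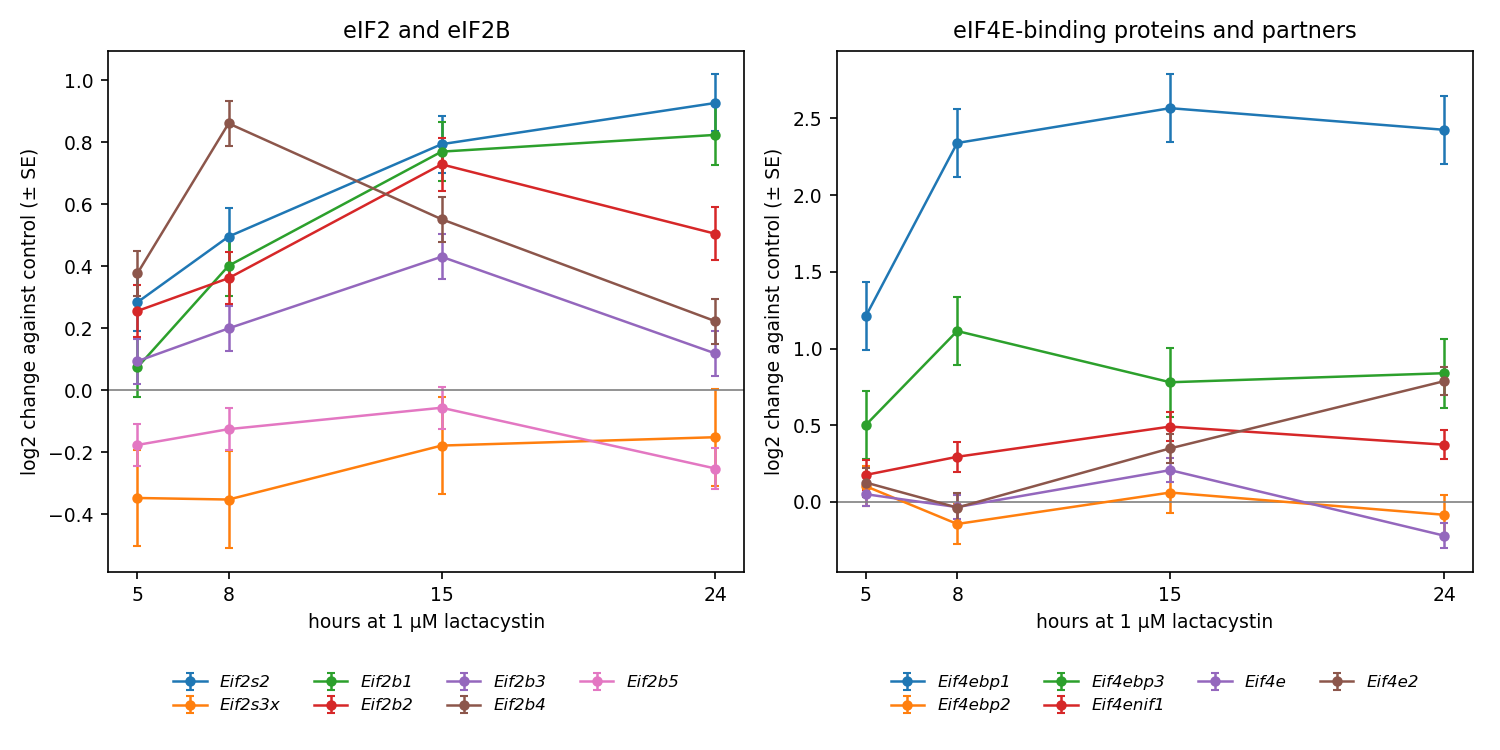
Log2 change against the 6 controls (points, bars are ± SE) at 5, 8, 15 and 24 h of 1 µM lactacystin. Left, subunits of eIF2 and eIF2B: Eif2b4 peaked at 8 h (0.86) while Eif2s2 and Eif2b1 were highest at 24 h. Right, eIF4E-binding proteins with Eif4e and Eif4e2: Eif4ebp1 stood far above the others from 5 h on.

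Promoter sequences are shown for the early peaking Eif2b4, the late rising Eif2ak3 and the falling Eef1a2 (described below), and for Eef1e1, a gene that was not called against the controls but carries the same motif letters as Eif2b4. Each line runs 5′ to 3′ on the gene's strand from 250 bases before to 50 bases after the annotated start (RefSeq, GRCm38.p6), and capitals mark matches to the antioxidant response core TGACNNNGC, the site type bound by NRF2.
Eif2ak3, chr6:70844265-70844564, plus strand: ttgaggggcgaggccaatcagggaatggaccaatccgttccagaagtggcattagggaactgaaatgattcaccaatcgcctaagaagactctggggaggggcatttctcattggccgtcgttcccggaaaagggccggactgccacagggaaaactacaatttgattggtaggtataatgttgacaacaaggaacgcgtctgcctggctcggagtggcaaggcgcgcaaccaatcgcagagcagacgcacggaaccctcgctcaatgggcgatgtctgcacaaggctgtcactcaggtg
Eif2b4, chr5:31193090-31193389, minus strand: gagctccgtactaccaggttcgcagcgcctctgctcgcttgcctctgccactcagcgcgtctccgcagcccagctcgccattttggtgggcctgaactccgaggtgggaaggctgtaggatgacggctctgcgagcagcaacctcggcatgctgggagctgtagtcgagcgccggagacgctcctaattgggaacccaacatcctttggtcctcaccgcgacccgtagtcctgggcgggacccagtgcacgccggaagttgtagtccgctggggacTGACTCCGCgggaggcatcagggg
Eef1e1, chr13:38658979-38659278, minus strand: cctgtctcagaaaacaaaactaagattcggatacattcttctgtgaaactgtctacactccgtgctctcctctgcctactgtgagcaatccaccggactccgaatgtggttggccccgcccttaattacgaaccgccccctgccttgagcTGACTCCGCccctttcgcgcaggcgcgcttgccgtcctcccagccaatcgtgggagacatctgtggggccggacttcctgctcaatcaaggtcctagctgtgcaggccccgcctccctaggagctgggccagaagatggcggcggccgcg
Eef1a2, chr2:181156966-181157265, minus strand: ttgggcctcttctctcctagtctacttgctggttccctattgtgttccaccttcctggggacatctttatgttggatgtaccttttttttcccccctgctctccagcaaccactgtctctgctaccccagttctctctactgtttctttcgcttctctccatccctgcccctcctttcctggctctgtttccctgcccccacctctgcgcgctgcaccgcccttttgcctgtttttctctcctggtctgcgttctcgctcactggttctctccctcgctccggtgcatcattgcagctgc
The match TGACTCCGC starts 27 bases after the annotated start of Eif2b4 and 100 bases before that of Eef1e1. Of the 48 genes, 36 have a promoter in the table, and Eif4ebp1 and Eif3d are not among them. Searched on both strands, TGACNNNGC was found in 7 of the 36 (19.4%, against 14% of 27025 genes), and 3 of those 7 genes were higher at 15 h of 1 µM, as were 15 of the 29 without it. The E-box CACGTG was found in 8 (22.2% against 8.09%), with 2 of the 8 higher at 15 h and 16 of the other 28. The amino acid response core TGATGCAA, a CEBP and ATF4 site type, was in 0 of 36 (1.03% of all genes), and the heat shock element in 0 (0.662% of all genes). A run of at least 5 pyrimidines beginning with a C at the annotated start, the feature of terminal oligopyrimidine mRNAs, was found in 2 of 36 (5.56% against 3.01%), Eif2s3x and Eif3f, neither of which was called against the controls. These matches describe the letters in a short window only.

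eIF3. The eIF3 complex bridges the small ribosomal subunit and the mRNA. Its 12 entries among the 48 genes gave 1, 5, 9 and 8 higher and 0 lower members at 5, 8, 15 and 24 h of 1 µM. The medians were 0.05, 0.28, 0.55 and 0.49. Of all tested genes 6.2%, 20.1%, 27.2% and 26.7% were higher and 4.08%, 19.8%, 27.7% and 30.7% lower at these times. Of 2 more subunits listed under other symbols, Eif3m was higher at 15 h (0.52 ± 0.18, adjusted p = 0.0179) and Eif3k was not called (-0.09 to 0.22 at 1 µM). The earliest was Eif3d, a subunit that can itself bind the cap of some mRNAs. Controls ranged from 11.30 to 11.82 with a median of 11.64. The arrays read 11.93, 12.08 and 12.12 at 5 h, 12.31, 12.42 and 12.38 at 8 h, 12.70, 12.85 and 12.81 at 15 h, and 12.42, 12.40 and 12.43 at 24 h. Every one of these 12 arrays lay above all controls, and the level was highest at 15 h. The changes were 0.43 ± 0.10, 0.75 ± 0.10, 1.17 ± 0.10 (2.25-fold) and 0.80 ± 0.10, with adjusted p = 0.00586, 2.29e-06, 9.63e-10 and 2.69e-07. The fall of 0.37 from 15 to 24 h also passed the test (adjusted p = 0.0298). Without replicate 3 of the 5 h group the call at 5 h was lost (0.39).

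Eif3c, a core subunit of the complex, was higher from 8 h on (0.35, 0.91 and 1.23 ± 0.13 at 8, 15 and 24 h, values picked for printing after they were seen), and the step from 15 to 24 h did not pass the test (0.32, adjusted p = 0.167). A further probe listed as Eif3s8, an older symbol of Eif3c, has an accession that matched no current gene and was kept apart. Its controls read 6.17 to 6.94 with a median of 6.45, against 7.84, 7.47 and 7.61 at 15 h and 7.52, 7.23 and 7.36 at 24 h. These 6 arrays lay above all controls, with changes of 1.18 ± 0.16 (adjusted p = 2.04e-06) and 0.91 ± 0.16 (adjusted p = 5.09e-05). At 8 h it was higher by 0.50 (adjusted p = 0.0168), a call lost without replicate 1 (0.45) or replicate 3 (0.44) of that group. If both probes measure one transcript, the eIF3 count holds that gene in 2 entries.

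The largest subunit, Eif3a, moved less (0.37 ± 0.13 at 15 h and 0.35 ± 0.13 at 24 h, adjusted p = 0.0215 and 0.0264). Controls read 8.93 to 9.70, and the arrays at 15 h (9.64, 9.58 and 9.51) fell between its highest control, replicate 5, and the rest. These calls were lost without replicate 1 (0.34) or 2 (0.36) of the 15 h group, without control 2 (0.29 at 24 h) and without replicate 1 of the 24 h group (0.25), and when arrays were centred on their medians. Among the other subunits, Eif3b, Eif3g and Eif3l were higher at both 15 and 24 h, Eif3i and Eif3j1 at 15 h but not 24 h, and Eif3e at 24 h but not 15 h. The other probes of Eif3i gave 0.09 and 0.05 at 15 h, neither called, and 1 of them was called at 24 h (0.29, adjusted p = 0.0425). Eif3f and Eif3h were not called against the controls. The Eif3f probe reads 10056.9 to 19999.7 intensity units where the highest probe of an array reads 19887.8 to 26642.3, and whether a rise is compressed there was not tested.

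Start codon selection. Eif5, which makes eIF2 hydrolyse its GTP once the start codon is found, was among the strongest risers. Controls read 9.19 to 9.67 with a median of 9.38. The arrays read 10.03, 10.08 and 9.91 at 8 h, 10.30, 10.6 and 10.61 at 15 h, and 10.68, 10.6 and 10.70 at 24 h. At 5 h (9.57, 9.55 and 9.41) they were still among the controls, and from 8 h on all lay above them. The rise was 0.61, 1.11 and 1.26 ± 0.11 (2.4-fold at 24 h, adjusted p = 2.52e-09). Within the 3 slides it was 1.22, 1.08 and 1.49 at 24 h.

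The eIF1A genes split. Eif1ax, the X-linked copy, was lower at 8, 15 and 24 h: controls read 9.13 to 9.79 with a median of 9.30, against 8.80, 9.01 and 8.96, then 8.76, 8.78 and 8.93, then 8.85, 8.78 and 9.04. All 9 arrays lay below every control. The changes were -0.48 ± 0.14, -0.58 ± 0.14 and -0.51 ± 0.14 (adjusted p = 0.00767, 0.00106 and 0.003), and the first of them lost its call without replicate 1 of the 8 h group (-0.42). The related Eif1a was higher at 15 h (0.53 ± 0.07) and 24 h (0.34 ± 0.07, values picked after they were seen). The 2 genes encode nearly the same protein, and how far each probe reads the other transcript was not tested. Eif1, listed under an older symbol, was not called (0.38 to 0.54 at 1 µM, SE 0.27). Eif1b, also listed under another symbol, was lower at 5 h of 1 µM (-0.46 ± 0.12, adjusted p = 0.0165) and not called at 8, 15 and 24 h. At 15 h of 0.1 µM it was higher (0.485 ± 0.12, adjusted p = 0.00756, values picked after they were seen).

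eIF4E-binding proteins. Eif4ebp1, which encodes 4E-BP1, had the largest change of all 48 genes at each time of 1 µM. Controls ran from 9.12 to 10.61 with a median of 9.74, replicates 5 and 6 being the highest (10.61 and 10.58). The arrays read 11.04, 11.07 and 11.14 at 5 h, 12.27, 12.17 and 12.19 at 8 h, 12.45, 12.48 and 12.39 at 15 h, and 12.29, 12.40 and 12.21 at 24 h. All 12 lay above the highest control. The rises were 1.21, 2.34, 2.57 and 2.43 ± 0.22, or 2.32-, 5.06-, 5.93- and 5.37-fold, with adjusted p = 0.00126, 4.03e-08, 2.33e-09 and 5e-09. Within the slides the rise at 15 h was 2.74, 3.11 and 1.85, the last on the slide of controls 5 and 6. A second, dimmer probe, detected on 4 of 6 controls, gave 1.01, 1.86, 2.44 and 2.26 ± 0.18.

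At 0.1 µM the same gene read 10.39, 10.49 and 10.54 at 15 h and 9.15, 9.32 and 9.50 at 24 h. Neither group was called against the controls (0.60 ± 0.22, adjusted p = 0.0652, and -0.55 ± 0.22, adjusted p = 0.169), but the fall of 1.15 between the 2 times passed the test (adjusted p = 0.00508). The second probe was detected on 1 of 3 arrays at 15 h and on none at 24 h of 0.1 µM. It gave -0.03 for 15 h of 0.1 µM against the controls where the first gave 0.60.

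Eif4ebp3, of the same family, was higher at 8, 15 and 24 h. Controls read 5.42 to 6.28 with a median of 5.85, against 6.72, 7.05 and 7.10 at 8 h, 6.50, 6.48 and 6.87 at 15 h, and 6.44, 6.67 and 6.93 at 24 h. All 9 arrays lay above every control. The changes were 1.11, 0.78 and 0.84 ± 0.22 (adjusted p = 0.000442, 0.00541 and 0.00295). Eif4ebp2, known as the main 4E-BP of the brain, was called at no time and dose: controls read 8.69 to 9.53, and the changes at 1 µM were 0.10, -0.14, 0.06 and -0.08 ± 0.13. Eif4enif1, which carries eIF4E into the nucleus, was higher at 8, 15 and 24 h (0.29, 0.49 and 0.37 ± 0.10, values picked after they were seen).

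**Figure D4:**
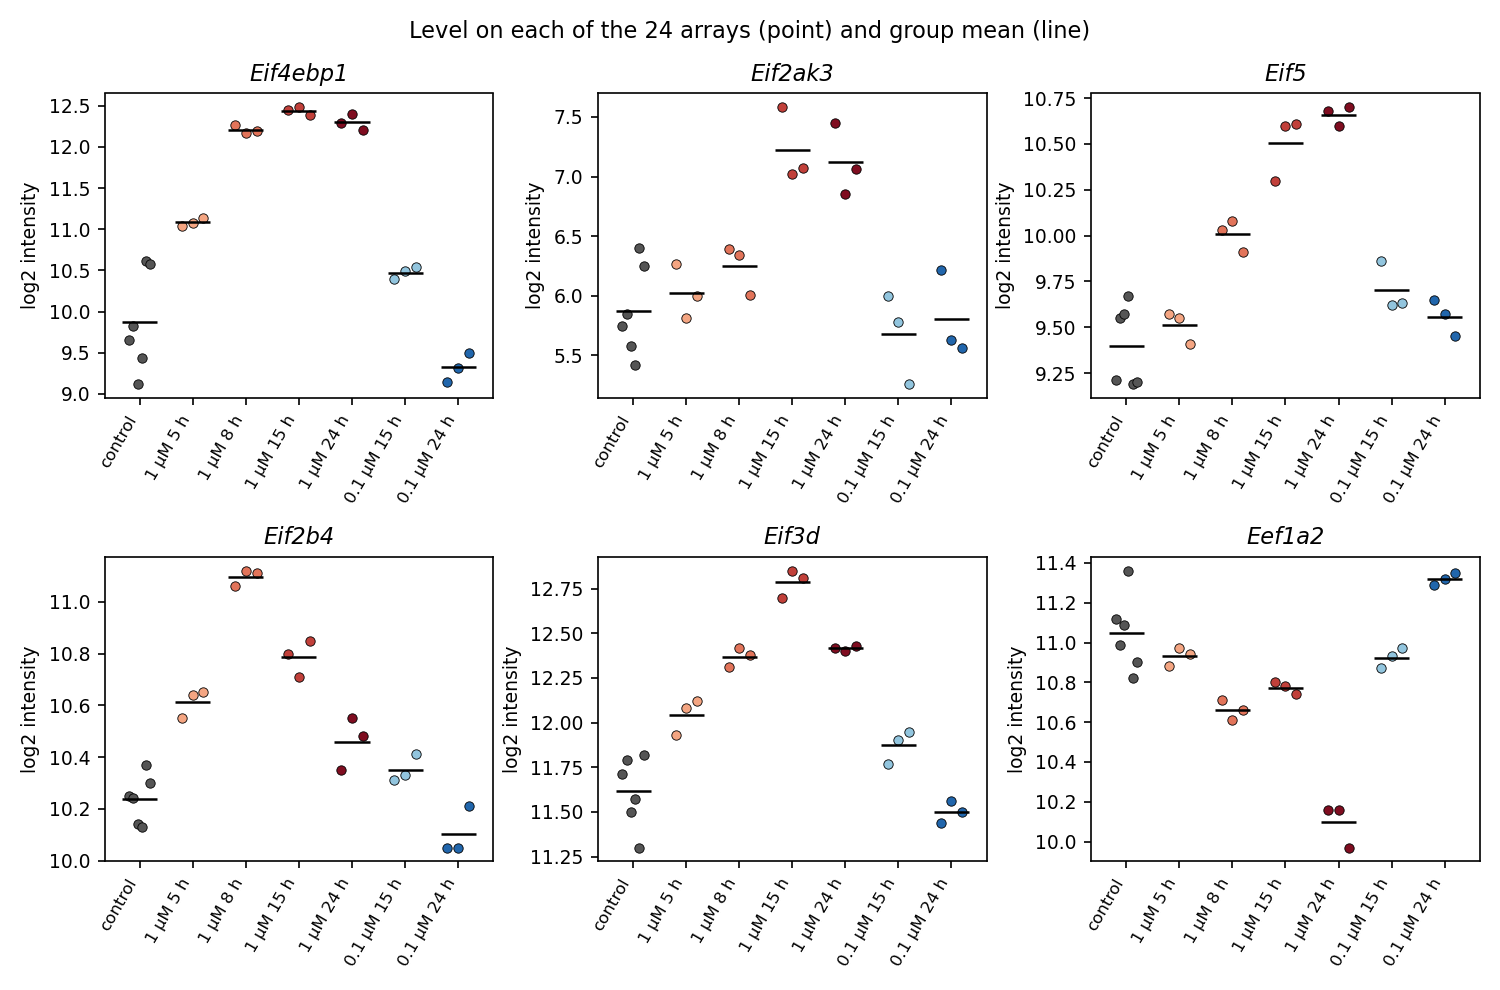
Log2 normalised intensity of 6 members on each of the 24 arrays (points) with the group mean (line); the vertical scale differs between panels. Eif4ebp1 lies above all controls from 5 h of 1 µM on, Eif2ak3 from 15 h on, and Eef1a2 drops to 10.16, 10.16 and 9.97 at 24 h of 1 µM while it reads 11.29 to 11.35 at 24 h of 0.1 µM.

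eIF4F. Of 8 genes of the cap-binding complex, its partners and homologues, 0 were called at 5 and 8 h of 1 µM. At 15 h 2 were higher and 1 lower, and at 24 h 2 higher and 2 lower. Of all tested genes 10.3%, 39.9%, 54.9% and 57.4% were called in either direction at 5, 8, 15 and 24 h. Eif4a2, the form of the helicase most abundant in brain, fell. Controls read 11.76 to 12.19 with a median of 11.83, against 11.20, 11.43 and 11.54 at 15 h and 11.46, 11.48 and 11.41 at 24 h, all below every control. The changes were -0.53 ± 0.10 (adjusted p = 0.000178) and -0.47 ± 0.10 (adjusted p = 0.00058), and a second probe gave -1.34 and -0.79, and was also lower at 8 h (-0.50, adjusted p = 0.0473). Its paralog Eif4a1 was not called (-0.21 to 0.12).

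Eif4e, the cap-binding protein itself, moved by small steps in both directions: 0.21 ± 0.08 at 15 h (adjusted p = 0.0326) and -0.22 ± 0.08 at 24 h (adjusted p = 0.0227). Controls read 8.79 to 9.08, the arrays 9.14, 9.08 and 9.15 at 15 h and 8.67, 8.59 and 8.83 at 24 h, so the groups overlap or touch. A second, dim probe of the gene gave -0.14 and -0.26, neither called. The call at 15 h was lost without any 1 of 6 arrays (controls 3, 4 and 6 and each array of the group, 0.18 to 0.23) and with cyclic loess normalization, and the call at 24 h without replicate 1 (-0.21) or 2 (-0.17) of the group. The repressive cap-binding homologue Eif4e2 was higher by 0.35 ± 0.09 at 15 h and 0.79 ± 0.09 at 24 h, but its second probe gave 0.20 and 0.04 and was not called (values picked after they were seen). The scaffold Eif4g1 was called at 24 h (0.42 ± 0.15, adjusted p = 0.0224), where its arrays (10.75, 10.87 and 10.56) met the control range of 9.76 to 10.69. That call was lost without controls 5 and 6 (0.23), without replicate 1 (0.40) or 2 (0.34) of the group, and with arrays centred on their medians (0.20). At 24 h of 0.1 µM Eif4g1 read 10.64, 10.76 and 11.05, no lower than at 1 µM, and was not called. Eif4g2, which directs cap-independent initiation, was not called (-0.45 to 0.72, SE 0.23).

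Elongation. Of all tested genes 10.3%, 39.9%, 54.9% and 57.4% were called against the controls at 5, 8, 15 and 24 h of 1 µM. Among the elongation genes that the name rule caught, 7 of the 8 were not called against the controls at any time of 1 µM. The exception was Eef1a2, the eEF1A form of neurons and muscle. Controls read 10.82 to 11.36 with a median of 11.04. The arrays read 10.71, 10.61 and 10.66 at 8 h, 10.80, 10.78 and 10.74 at 15 h, and 10.16, 10.16 and 9.97 at 24 h, all below every control, and the drop at 24 h stood clear of the rest. The changes were -0.39 ± 0.09 (adjusted p = 0.00153), -0.27 ± 0.09 (adjusted p = 0.0132, but 0.0941 when only the controls and the 15 h arrays were fitted) and -0.95 ± 0.09 (0.517-fold, adjusted p = 7.8e-09). Within the 3 slides the change at 24 h was -0.89, -1.26 and -0.71, and a second probe gave -1.01 ± 0.24. The neuron marker sum fell over the same groups (13753 to 14105 at 24 h, 15689 to 16037 at 15 h, 20230 to 20834 at 8 h, against 22612 to 26720), and its part in the fall of Eef1a2 was not tested. With genes outside the name rule, 11 of this role were tested, 2 higher and 2 lower at both 15 and 24 h. Of those outside it, Eefsec was higher at 15 and 24 h (0.49 and 0.40). Eef1aknmt was higher (0.94, 0.52 and 0.26) and Eef1akmt1 lower (-0.72, -0.56 and -1.04) at 8, 15 and 24 h (values picked after they were seen).

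The ubiquitous form Eef1a1 was not called (-0.07 to 0.07), nor were the eEF1B subunits Eef1b2, Eef1d and Eef1g by their brightest probes (-0.18 to 0.17) or eEF2 at 1 µM (-0.14 to -0.06). A second probe of Eef1b2 was higher at 24 h (0.32 ± 0.13, adjusted p = 0.0432), and a second probe of Eef1d was higher at 15 h of 0.1 µM (0.24, adjusted p = 0.0331) and lower at 1 µM than at 0.1 µM at that time (-0.38, adjusted p = 0.000956). Eef1a1 and Eef1g lie near the top of the signal range (tested probes 11745.6 to 19882.8 intensity units), and whether a change is compressed there was not tested. Eef1e1, a scaffold protein of the aminoacyl-tRNA synthetase complex, was not called against the controls (-0.24 to 0.20 at 1 µM). The kinase Eef2k was dim, detected on 13 of 24 arrays and on 0 of 3 at 15 h of 1 µM, and was not called against the controls. Between the doses at 15 h it was at least 1.3-fold brighter at 0.1 µM (measured means 5.50 against 4.90, adjusted p = 0.0209), counted from the lowest detected level on the arrays of the dim group. The change of eIF5A, a factor that helps ribosomes through difficult peptide bonds, was -0.24 to 0.14 at 1 µM and not called by the brightest probe of Eif5a. Another probe of the gene was lower at 8 h (-0.50, adjusted p = 0.000315) and 15 h (-0.35, adjusted p = 0.00454).

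The Argonaute genes, kept here because the name rule catches them, did not move together. Ago2, the slicing Argonaute, was lower at 8 h alone: the arrays read 7.37, 7.21 and 7.62 where controls read 7.44 to 8.59 with a median of 8.12 (-0.72 ± 0.20, adjusted p = 0.00683). By 15 h it read 8.21, 8.53 and 8.06, back among the controls. Ago3, which is dim, was higher at 8, 15 and 24 h (0.42, 0.53 and 0.86 ± 0.13, values picked after they were seen), and Ago4 was not called.

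At 0.1 µM little passed the test. At 15 h 0 members were higher and 2 lower, where 8.53% and 8.03% of all tested genes were. They were Eef2, at 12.27, 12.38 and 12.28 against controls of 12.38 to 12.82 with a median of 12.63 (-0.30 ± 0.09, adjusted p = 0.0195), and Eif4e, at 8.67, 8.57 and 8.70, below every control (-0.27 ± 0.08, adjusted p = 0.025). The other probes of Eef2 gave -0.30 each without a call, and the dim second probe of Eif4e gave 0.51. Eef2 lost its call without replicate 1 or 3 of the 15 h group (-0.28 each), and Eif4e without replicate 1 (-0.28) or 2 (-0.23). Without 1 array the count at 15 h ranged from 0 (replicate 1 of the group left out) over 1 (replicate 2 or 3) to 4 (control 5 or 6), 5 (control 2) and 6 (control 4). At 24 h limma called 0 members (0.698% of all genes were higher and 1.54% lower, 2.24% in either direction). At an unadjusted p under 0.05 in limma stood 8 of 48 members at 24 h, where 2177 of all 10885 genes did. At 15 h the numbers were 12 members and 3162 genes, so neither member count stands out. Limma called 3 members at 24 h without control 3 and 5 without control 4. These counts depend on the scaling: with arrays centred on their medians, which moves the median of all genes to -0.14 and -0.21, 12 and 10 members were lower and none higher. In the authors' ratio table the numbers were 12 and 9. The shares of all genes called under these scalings are not given here, so these counts are not shown to be particular to the members.

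The doses were compared directly at matched times. At 15 h 23 members were higher and 2 lower at 1 µM than at 0.1 µM (26% and 25.4% of all genes, 51.4% in either direction), and at 24 h 19 and 4 (26.7% and 27%). Eif4ebp1 differed by 1.96 ± 0.25 at 15 h and 2.97 ± 0.25 at 24 h, 7.86-fold, Eif2s2 by 1.02 and 1.1 ± 0.11, and Eif2ak3 by 1.55 and 1.31 ± 0.25. Eef1a2 did not pass at 15 h (-0.15 ± 0.10, adjusted p = 0.243) and was lower by 1.22 at 24 h (log2 difference -1.22, adjusted p = 1.79e-09). Its arrays read 9.97 to 10.16 at 1 µM and 11.29 to 11.35 at 0.1 µM. Eif4e was higher at 1 µM at 15 h by its bright probe (0.47 ± 0.09, adjusted p = 0.000172), but its dim probe was lower (-0.65 ± 0.24, adjusted p = 0.0271). Eif2b5 was lower at 1 µM at 24 h (-0.22 ± 0.08, adjusted p = 0.0198), and Eef1e1 was higher there (0.38 ± 0.16, adjusted p = 0.0472).

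Step by step at 1 µM, 7 members were higher and 1 lower at 8 h than at 5 h (9.25% and 8.34% of all genes, 17.6% in all). From 8 to 15 h 17 rose and 2 fell (15.3% and 17.9%, 33.2% in all), among them 6 eIF3 entries and the eIF2 alpha kinases Eif2ak1 and Eif2ak3 upward, and Eif2b4 and Eif4a2 downward. From 15 to 24 h 1 rose (Eif4e2) and 6 fell (5.6% and 6.12%): Eif2ak1, Eif2b3, Eif2b4, Eif3d, Eif4e and Eef1a2. The step from 8 to 15 h depends on the scaling, with 2 up and 2 down when arrays are centred on their medians and 6 and 2 in the authors' ratio table. The shares of all genes under these scalings are not given here. Leaving out 1 array moved the count of 8 for the first step to 3 (replicate 3 at 5 h or 2 at 8 h), 4 (replicate 2 at 5 h or 1 at 8 h) or 5 (replicate 1 at 5 h), that of 19 for the second to 11 (replicate 2 at 15 h) or 12 (replicate 1 at 8 h), and that of 7 for the last to 4 (replicate 1 at 24 h).

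Between 15 and 24 h of 0.1 µM 4 members rose (Eif1ax, Eif4a2, Eef1a2 and Eef2) and 2 fell (Eif3d and Eif4ebp1), where 4.56% of all genes rose and 7.18% fell. The 3 genes that were low at 1 µM, Eif1ax, Eif4a2 and Eef1a2, rose by 0.49, 0.42 and 0.40. The count was 2 without replicate 3 at 15 h or replicate 2 at 24 h, and 3 without replicate 1 of either group. The difference between the 15 to 24 h steps of both doses passed the test for 8 members, 1 positive and 7 negative (9.14% and 7.63% of all genes). It was most negative for Eef1a2 (-1.08), which fell by 0.68 at 1 µM and rose by 0.40 at 0.1 µM.

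Factors outside the name rule and partner pathways were read from lists. Another 13 genes of the same roles stand in the table under other symbols. At 15 h of 1 µM 5 of them were higher and 1 lower (27.2% and 27.7% of all genes), and at 24 h 3 and 1 (26.7% and 30.7%). Eif6, which keeps the ribosomal subunits apart, was higher at 8, 15 and 24 h (0.27, 0.57 and 0.51 ± 0.08, adjusted p = 0.0111, 4.03e-06 and 1.34e-05). On a list of 11 genes of the integrated stress response around eIF2, 9 were tested. At 5, 8, 15 and 24 h of 1 µM, 7, 8, 8 and 7 were higher and 0, 1, 1 and 1 lower (medians 0.96, 1.5, 1.72 and 1.8). Of all tested genes 6.2%, 20.1%, 27.2% and 26.7% were higher and 4.08%, 19.8%, 27.7% and 30.7% lower at these times. The pseudokinase Trib3 rose by 4.33 ± 0.36 and the growth arrest gene Gadd45a by 3.39 ± 0.10 at 15 h. The phosphatase subunit Ppp1ca, catalytic partner of the complex that dephosphorylates eIF2, was lower (-0.35 ± 0.08 at 15 h). At 0.1 µM the counts of this list were 1 higher and 1 lower at 15 h (8.53% and 8.03% of all genes). At 24 h they were 0 and 0 (0.698% and 1.54%).

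On a list of mTORC1 and the control of the 4E-BP, S6 and eEF2 kinases, 19 genes were tested, with 7 higher and 4 lower at 15 h and 7 and 2 at 24 h of 1 µM (medians 0.27 and 0.11). Of all genes 54.9% and 57.4% were called at these times in either direction, against 11 and 9 of these 19. The largest rises at 15 h were in the mTORC1 inhibitors Ddit4l (2.00 ± 0.09) and Deptor (1.15 ± 0.12), and at 24 h in Ddit4l (2.49 ± 0.09) and the leucine sensor Sesn2 (1.33 ± 0.15). The largest falls were in Pdcd4, an inhibitor of eIF4A (-0.60 ± 0.11 at 15 h and -0.74 ± 0.11 at 24 h), and the eIF4E kinase Mknk2 (-0.60 ± 0.13 and -0.48 ± 0.13). Of 21 tested genes on a list of other translation factors, 7 were higher and 3 lower at 15 h and 5 and 3 at 24 h (medians 0.05 and 0.00), where 54.9% and 57.4% of all genes were called. The termination factor Etf1 rose by 1.17 ± 0.08 and the mitochondrial elongation factor Gfm1 by 1.00 ± 0.13 at 15 h. The reinitiation factor Mcts1 (-0.84 ± 0.09), the nuclear poly(A)-binding protein Pabpn1 (-0.79 ± 0.15) and, at 24 h, Dhps, which starts the hypusine modification of eIF5A (-0.62 ± 0.07), were lower.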

How the data were processed

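The authors deposited a table of probe signals as intensity, with no normalization between arrays, and a BeadStudio 3.2.6 scanner table without normalization, per the file headers. The detection score in the scanner table is a fraction between 0 and 1 that BeadStudio wrote for each gene, per the file headers. Another deposited table holds a ratio for each gene, and it was recomputed here as the signal over the array median over the mean of the 6 controls. It served as an alternative only. No source used here gives the background step behind the deposited intensity values.

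From the intensities, background was corrected with nec of limma 3.58.1 (R 4.3.3) using the detection p and an offset of 16, and arrays were quantile normalised and put on the log2 scale, since no log2 values of the authors were used. The scanner score is given per gene, so the score of each probe was inferred from its signal on that array. It was read off a running median (window of 101) of the scanner scores along signal, made monotone. The detection p comes from the same inferred scores, and detection here amounts to a signal limit for each array. Probes detected (score 0.99 or more) on at least 3 arrays were kept, 13549 in all, and the probe brightest on average stood for its gene. Group means were fitted over all 24 arrays (17 residual degrees of freedom, prior 4.26), with 13 comparisons adjusted by Benjamini-Hochberg over 10885 genes each. Symbols were updated through RefSeq accessions for 20510 probes. The number of arrays limits the precision.

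Genes named were the stress kinases, eIF2, eIF2B epsilon, eIF4F, 4E-BP, eIF1, eIF5, eIF5A, Eif3a, Eif6 and main elongation genes, plus the 3 largest called rises and falls per comparison with the same direction on all slides, and the 2 largest of each pathway list at 15 and 24 h. Genes marked as picked after their values were seen fall outside that rule, as do Eif1a, Eif2s3x, the eEF1B subunits and the uncalled subunits of eIF3. The members and lists were chosen with earlier results of these data known. Alternatives covered background, scaling, filter, samples fitted, slide block, array weights, the authors' ratios and leaving out arrays.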

Additional observations from a re-analysis of the deposited data

Results flagged for a closer look

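In 3 of the 48 genes 1 control array stood apart from the other five, where chance alone would mark about 1 group in 20. Eef1g read 14.06 on control 1 (others 13.77 to 13.87), Eif3i read 12.75 on control 3 (others 12.97 to 13), and Eif4enif1 read 6.96 on control 2 (others 7.25 to 7.4). In each case the gap to the nearest control exceeded 0.625 of the range of the 6 controls.

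The change from 15 to 24 h differed between the doses for 8 genes, tested in limma as the step at 1 µM minus the step at 0.1 µM. That is 16.7% of the members, near the 16.8% of all tested genes, so the count is not particular to the members. The differences were -1.08 for Eef1a2, -0.61 for Eif4e, -0.59 for Eif2ak1, -0.41 for Eef2, -0.37 for Eif1a, -0.36 for Eif2b3, -0.34 for Eif2b5 and 0.6 for Eif4e2. For Eef1a2 all 3 slides gave the same sign (-1.01, -1.15 and -1.06). The second probe of Eif4e2 was not called at 1 µM (0.20 at 15 h and 0.04 at 24 h). The dim second probe of Eif4e was called in the opposite direction to the bright one between the doses at 15 h.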

How the results depend on the processing

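Among values of single genes, 5092 kept their side of the threshold under an alternative, 97 gained a call and 49 lost one. Of values called in the main setting or the alternative, 0 changed sign. Sign changes of values called in neither were not counted. Counts of members called stayed within 1.5 times the main count in 404 cases and moved further in 64. At 5 h of 1 µM, where the main count was 3, it was 6 with no background correction, 6 with probes detected on all 24 arrays, 0 with only the groups compared, 5 with the replicate block, 7 with array weights and 7 without controls 5 and 6. At 15 h of 0.1 µM (main count 2) it was 5, 4, 0, 5, 7 and 5 under the same 6 alternatives, 12 with median centring, 1 with cyclic loess, 4 with the scanner slide as a block and 12 in the authors' ratio table. At 24 h of 0.1 µM (main count 0) it was 10 with median centring, 2 with the replicate block, 2 with the scanner slide as a block and 9 in the ratio table. The step from 8 to 15 h (main count 19) gave 4 with median centring and 8 in the ratio table, and the step from 5 to 8 h (main count 8) gave 18 with array weights. The low-dose step (main count 6) gave 2 with median centring, 10 with the scanner slide as a block, 15 with array weights, 3 in the ratio table and 10 without controls 5 and 6. The difference between the steps (main count 8) gave 2 with median centring, 13 with array weights and 3 in the ratio table. The cause was not tested, and the shares of all genes called under these alternatives are not given here. Fitting only the groups compared leaves fewer arrays behind each variance, and the part of that was not tested either.

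Leaving out 1 array at a time gave counts of 2 to 6 at 5 h, 14 to 20 at 8 h, 24 to 29 at 15 h and 22 to 27 at 24 h of 1 µM. It gave 0 to 6 and 0 to 5 at 15 and 24 h of 0.1 µM, and 20 to 27 and 21 to 25 between the doses. It gave 3 to 10, 11 to 19 and 4 to 7 for the 3 steps at 1 µM, 2 to 8 for the step at 0.1 µM and 4 to 9 for the difference between the steps. The last was 4 without replicate 1 at 15 h of 0.1 µM and 5 without any 1 of these: replicates 1, 2 or 3 at 15 h, 1 or 2 at 24 h or 2 at 5 h of 1 µM, and 2 at 15 h, 1 or 3 at 24 h of 0.1 µM.

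Replicate numbers did not pair the arrays: deviations from the group means correlated at a median of 0.061 for the same number, with 32 of 81 pairs over 0.1, and at 0.253 for the same scanner slide, with 53 of 81. Apart from the counts above, the replicate block moved no count of members by over 1.5 times. Eif2b4 at 24 h, Eif3a at 15 and 24 h, Eif4e at 15 h and Eif4g1 at 24 h lost their calls in the authors' ratio table (0.04, 0.32, 0.19, 0.14 and 0.23). Dim probes such as Eef2k, detected on 13 arrays, and probes near the top of the signal range limit what a missing call shows.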
